A study of Bos taurus with 6 samples.

Results

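The proteasome subunit genes described here are the rows whose gene name is PSMA, PSMB, PSMC or PSMD followed by a number, without the immunoproteasome subunits PSMB8, PSMB9 and PSMB10, which are treated as a related list. The rule found 37 of the 32183 rows of each expression table, with 36 gene names, because PSMD13 has 2 rows. Of these, 35 rows had a mean level high enough to be tested, and PSMA8 and PSMB11 were listed at 0 in every culture. The 36 names lay on 17 chromosomes. PSMD5, PSMD9 and PSMD10 are chaperones that assemble the proteasome and are not parts of the finished complex. They fall under the rule and are counted among the subunit rows below.

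RNA-seq was performed on rumen epithelial primary cells (REPC), grown from the rumen of 1 Holstein bull calf that was 2 weeks old and had received milk replacer only. The 2 groups were 3 untreated control cultures and 3 cultures given 5 mM butyrate for 24 h. Butyrate, a product of rumen fermentation, serves the epithelium as fuel and also inhibits histone deacetylases. All 6 cultures came from the same calf, so the tests measure the spread between cultures and not between animals. The paper calls the 3 samples of each condition biological replicates, but the labels do not say whether they were grown separately.

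The proteasome is the barrel-shaped protease that degrades most ubiquitin-tagged proteins of the cytosol and nucleus. Its core particle is built from outer rings of alpha subunits (PSMA genes), which gate the entry, and inner rings of beta subunits (PSMB genes), 3 of which carry the proteolytic sites. The regulatory particle caps the core. Its base holds a ring of ATPases that unfold the substrate (PSMC genes), and its lid removes the ubiquitin chain (most PSMD genes). Because the subunits are used in fixed proportions, cells are known to control these genes together, in part through the transcription factor NFE2L1.

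Levels were given as FPKM, fragment numbers divided by transcript length and by library size, so levels of different genes can be set side by side. The tables hold no counts. The paper gives a mapping summary of its RNA-seq data sets, but the depth of each culture was not used here. Summed FPKM ranged from 678035 to 681912 in the control cultures and from 619401 to 629037 in the butyrate cultures. Between 16051 and 16193 genes were above 0 in the controls and between 17306 and 17510 after butyrate. Correlations of log2 levels were 0.9948 to 0.9955 within groups and 0.9626 to 0.9663 between groups. Epithelial keratins and CDH1 were present in every culture, although the epithelial marker EPCAM was under 1 FPKM in the controls, and the fibroblast-type genes VIM and COL1A1 were also high. Markers of cell types moved with the treatment. Among 8 epithelial markers 6 rose and 1 fell, and their summed FPKM was 2417 to 2527 in control and 5041 to 5123 after butyrate. All 7 tested of 8 fibroblast markers rose, with sums of 4356 to 4512 and 6373 to 6714, while PDGFRB was at or near 0. Of 3 smooth muscle markers 2 fell and 1 rose, with sums of 2639 to 2818 and 840 to 1151 that consisted almost wholly of ACTA2. The 4 immune markers summed to between 5.12 and 7.15 in control and between 7.23 and 9.38 after butyrate, and 1 of the 2 tested rose. The 3 endothelial markers summed to between 1.95 and 2.07 in control and between 6.47 and 8.41 after butyrate, and both tested ones rose. The defining markers PTPRC (leukocytes) and CDH5 (endothelium) were at 0 in all 6 cultures. The part of these shifts in the values below was not tested. In bulk samples, fewer cells of a type and less RNA per cell cannot be told apart.

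Butyrate-treated cultures had a lower FPKM of nearly every proteasome subunit. FPKM is relative to library size, so RNA per cell was not measured. With limma and Benjamini-Hochberg (BH) adjustment over all 15813 genes tested, 32 of the 35 tested subunit rows (91.4%) fell and 0 rose at an adjusted p under 0.05. Over all tested genes 25.9% fell and 32.5% rose. Among the 2548 genes whose mean FPKM was at least 41.9, that of the lowest tested subunit, 50.7% fell. These are called genes at the level of the subunits below. The set has a floor and no upper bound, so it was not matched to the levels of the subunits. The fold changes of all 35 rows were negative, except that quantile normalization turned PSMB1 and PSMD6 positive and rescaling to TPM turned PSMB1 positive. PSMB1, PSMD6 and the shorter PSMD13 entry were the 3 rows that did not pass the test.

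With the FPKM as deposited, the changes were moderate and in the same direction, but they differed in size. The median log2 fold change of the 35 rows was -0.58, within a range from -1.47 to -0.096 and with an SD of 0.32 among the rows. The median over all tested genes was 0.10 and that of the genes at the level of the subunits was -0.17. In terms of levels, the butyrate mean was 67.0% of the control mean for the median subunit, between 36.1% for PSMD10 and 93.6% for PSMB1. In 22 rows the fall passed the test and was beyond 0.5 on the log2 scale, which was so for 18.3% of all tested genes. The largest falls were those of PSMD10 at -1.47 and PSMB5 at -1.28, and some other tested genes fell further. The study called a gene differentially expressed at a Bonferroni-adjusted p under 0.05 with a log2 fold change beyond 2. In limma no subunit passed these thresholds, which 3.97% of all tested genes passed. The paper applied them to a Cufflinks analysis, so the limma result is not the paper's own call. At an unadjusted p under 0.05, limma gave 33 of the 35 rows, all lower, against 27.8% of all tested genes that were lower by that rule. The Bonferroni threshold alone was passed by 18 subunit rows (51.4%), all lower, against 6.97% of all tested genes that were lower by that rule. For the rules other than the BH test alone, no share was computed among genes at the level of the subunits.

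**Figure D1:**
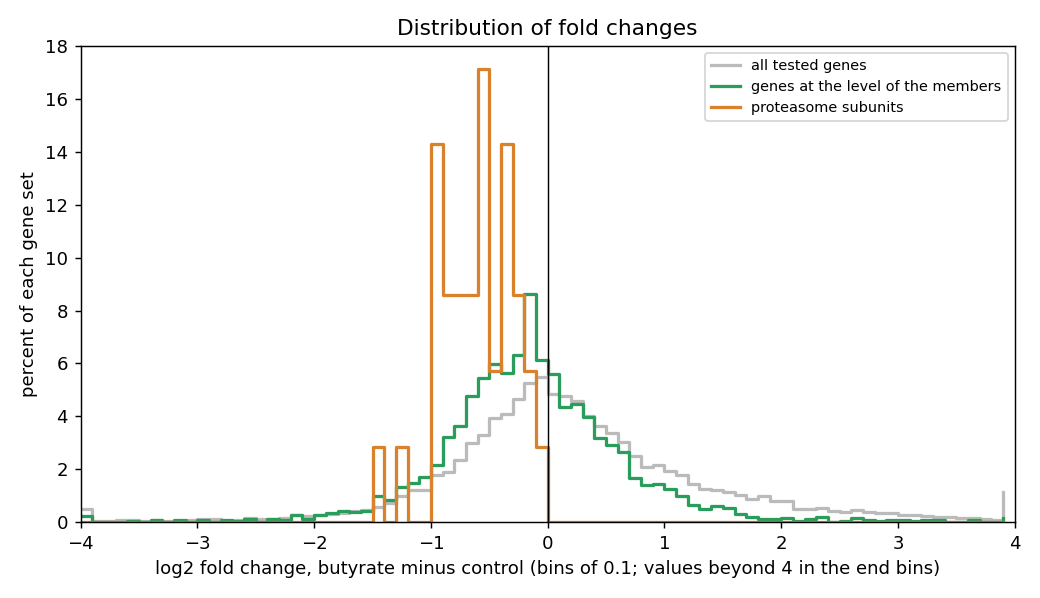
Distribution of log2 fold changes, butyrate minus control, in bins of 0.1 (x axis), as the percent of each gene set (y axis). The sets are all 15813 tested genes, the 2548 genes at the level of the subunits and the 35 tested proteasome subunit rows. Genes at that level had a mean FPKM of at least 41.9, with no upper bound. Values beyond 4 are in the end bins. The subunit rows lie between -1.47 and -0.096, left of zero, while the other sets extend to both sides.

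The groups were also compared without the model. In 32 rows all 3 butyrate values lay below all 3 control values, and in the other 3 rows the groups overlapped. Such a separation was found in 28.9% of all tested genes, and its share among genes at the level of the subunits was not computed. Cufflinks gives each FPKM a 95% confidence interval for its estimation error. For 29 rows the highest upper bound of the butyrate cultures lay below the lowest lower bound of the controls. The share of all tested genes with intervals apart in this way was not computed, so this count is a description only. The half-width of these intervals was between 2.70% and 13.97% of the FPKM, apart from the shorter PSMD13 entry, where it reached 35.4%. With 3 cultures against 3, an exact two-sided permutation test of a single gene cannot give a p below 0.1.

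Added over the 35 rows, subunit RNA amounted to 7217, 7189 and 7364 FPKM in the control cultures and to 4624, 4768 and 4771 FPKM after butyrate. The sum after butyrate was 0.651 of that in control. As a share of each culture's summed FPKM, it went from 1.07% ± 0.0148 to 0.756% ± 0.00882 (mean ± SD, n = 3 each). The groups did not overlap, and the lowest control sum was well above the highest butyrate sum.

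**Figure D2:**
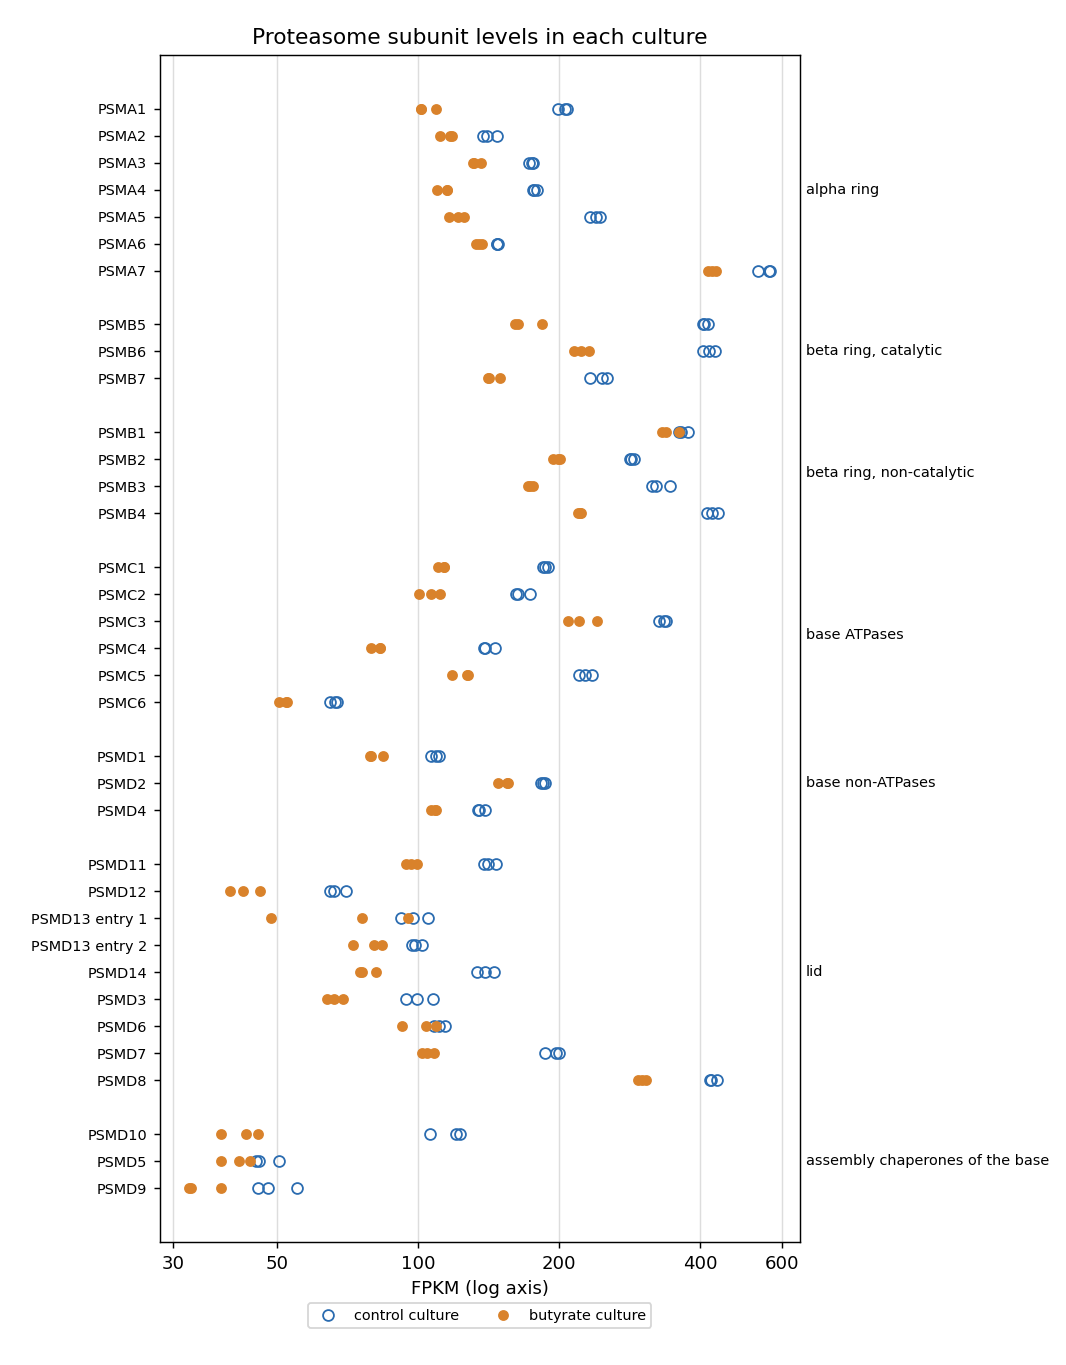
FPKM of each tested proteasome subunit row (log axis) in the 3 control cultures (open circles) and the 3 butyrate cultures (filled circles), grouped by role in the complex. Control means run from 47.1 for PSMD5 to 554 for PSMA7, and only PSMB1, PSMD6 and PSMD13 entry 1 have groups that overlap.

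All 7 expressed subunits of the alpha ring fell. Their median log2 fold change was -0.39, and they spanned from -0.98 to -0.13. PSMA5 (chr3:34126154-34147184 in UMD3.1) was at 233, 240 and 245 FPKM in the control cultures and at 122, 116 and 125 after butyrate. Its log2 fold change was -0.98 (SE 0.04, limma, BH-adjusted p = 4.8e-07). PSMA1 (chr15:38745760-38758644) was at 208, 199 and 206 FPKM in control and at 101, 102 and 109 after butyrate, a log2 fold change of -0.98 (SE 0.05, limma, BH-adjusted p = 6.3e-07). Every butyrate culture stood far below every control culture for both genes, and the butyrate means were 50.7% and 50.9% of control. PSMA4 fell by 0.65, PSMA3 by 0.39, PSMA7 by 0.38 and PSMA2 by 0.29 on the log2 scale. PSMA7 had the highest level of any subunit in both groups, with a mean of 554 FPKM in control and 425 after butyrate. PSMA6 fell by only 0.13 on the log2 scale (SE 0.04, limma, BH-adjusted p = 0.0186), from 148, 148 and 147 to 133, 137 and 135 FPKM. Its call was lost without control replicate 1 (BH-adjusted p = 0.0515) or control replicate 2 (BH-adjusted p = 0.0543) and under 4 other settings. The PSMA7 call was lost with quantile normalization, at -0.081.

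PSMA5 and PSMA6 had the most and the least negative fold change of the ring, and their ratio is given as a description. It was 1.58, 1.62 and 1.66 in the control cultures and 0.914, 0.852 and 0.931 after butyrate. The log2 ratio differed by -0.85 between the groups. PSMA8, the alpha subunit of the testis proteasome (chr24:30986102-31007533), was listed at 0 FPKM in all 6 cultures.

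The 3 catalytic beta subunits of the constitutive proteasome all fell, with a median log2 fold change of -0.91. PSMB5 (chr10:21658160-21663680), which carries the chymotrypsin-like site, was at 405, 408 and 416 FPKM in control and at 163, 161 and 183 after butyrate. Its mean after butyrate was 41.3% of control, and its log2 fold change of -1.28 (SE 0.05, limma, BH-adjusted p = 3.3e-07) was the most negative of the core particle. PSMB6 (chr19:27198591-27200805), which carries the caspase-like site, was at 406, 418 and 432 FPKM in control and at 215, 223 and 231 after butyrate. This was a log2 fold change of -0.91 (SE 0.04, limma, BH-adjusted p = 6.1e-07). PSMB7 (chr11:95401671-95458914), which carries the trypsin-like site, was at 253, 233 and 247 FPKM in control and at 141, 149 and 142 after butyrate, a log2 fold change of -0.76 (SE 0.05, limma, BH-adjusted p = 2.3e-06). For each of the catalytic subunits the highest butyrate culture stood well below the lowest control culture.

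Of the 4 beta subunits without a proteolytic site, 3 fell. PSMB4 fell by 0.94, PSMB3 by 0.91 and PSMB2 by 0.53 on the log2 scale. PSMB1 was the exception, at 361, 365 and 376 FPKM in control and 338, 361 and 332 after butyrate, and the groups overlapped. Its log2 fold change was -0.096, with a 95% confidence interval from -0.19 to 0.0031 (limma, BH-adjusted p = 0.0879). Without butyrate replicate 2 it was -0.13 and passed (BH-adjusted p = 0.0238), and with quantile normalization it was 0.12 and passed as higher (BH-adjusted p = 0.0267). In the order of levels PSMB1 went from place 6 in control to place 2 after butyrate, while PSMB5 went from place 5 to place 9. The ratio of PSMB5 to PSMB1, likewise the ends of the range of the beta ring, was 1.12, 1.12 and 1.10 in control and 0.482, 0.445 and 0.552 after butyrate. The log2 ratio differed by -1.18 between the groups. PSMB11, the beta subunit of the thymus proteasome (chr10:21652616-21653790), was listed at 0 FPKM in all 6 cultures.

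The ATPase ring of the base fell as a whole. All 6 genes passed the test, with a median log2 fold change of -0.69. PSMC5 fell by 0.87, PSMC4 by 0.79, PSMC1 by 0.73, PSMC2 by 0.65, PSMC3 by 0.58 and PSMC6 by 0.35 on the log2 scale. PSMC6 had the lowest level of the ring, with 66.0 ± 1.14 FPKM in control and 51.7 ± 1.06 after butyrate (mean ± SD, n = 3 each), and PSMC3 the highest, with 334 ± 6.11 and 223 ± 16.6 FPKM. The PSMC4 row (chr18:49688181-49699040) lies within the row of FBL, which encodes the nucleolar methyltransferase fibrillarin and went from a mean of 195 FPKM in control to 43.0 after butyrate. The strand of the libraries is not given in the sources used here, so reads of the overlapping rows could have been shared, and this was not tested.

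Among the non-ATPase subunits of the base, PSMD1 and PSMD2 are the large scaffold subunits and PSMD4 is a ubiquitin receptor. All 3 fell, at log2 fold changes of -0.43, -0.27 and -0.33. Their mean levels after butyrate were 74.2%, 82.8% and 79.5% of control.

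Of the 9 rows of the lid, 7 fell, with a median log2 fold change of -0.55. PSMD14, the deubiquitinase that removes the ubiquitin chain before degradation, fell by 0.84 on the log2 scale (SE 0.05, limma, BH-adjusted p = 2.6e-06), and PSMD7, its structural partner, fell by 0.89 (SE 0.05, limma, BH-adjusted p = 9.6e-07). The scaffold subunits PSMD12, PSMD3, PSMD11 and PSMD8 fell by 0.65, 0.60, 0.55 and 0.50. PSMD8 had the highest level outside the core particle, at 426 ± 7.12 FPKM in control and 301 ± 5.49 after butyrate (mean ± SD, n = 3 each). PSMD6 did not pass. It was at 114, 108 and 111 FPKM in control and at 104, 109 and 92.4 after butyrate, with overlapping groups and a log2 fold change of -0.13 (95% confidence interval -0.28 to 0.024, limma, BH-adjusted p = 0.130). Without butyrate replicate 2 it was -0.18 and passed (BH-adjusted p = 0.0486), while quantile normalization turned it to 0.033.

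PSMD13 is represented by 2 rows on chromosome 11. The longer entry (chr11:107246185-107251342) fell by 0.33 on the log2 scale (SE 0.06, limma, BH-adjusted p = 0.00148). The shorter entry (chr11:107117097-107118617) was at 91.8, 105 and 97.6 FPKM in control and at 48.5, 75.7 and 95.3 after butyrate, a far wider spread than in any other subunit. Its log2 fold change of -0.47 did not pass (SE 0.21, limma, BH-adjusted p = 0.0773). Without butyrate replicate 3 it was -0.69 and passed (BH-adjusted p = 0.0137). The files do not say how the rows relate, and reads that both could take were not resolved here.

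The PSMD series also names 3 chaperones that assemble the base and are not found in the finished complex, and all 3 fell. PSMD10, also known as gankyrin (chrX:60966165-60973538), was at 123, 106 and 120 FPKM in control and at 45.5, 38.0 and 42.8 after butyrate. Its log2 fold change of -1.47 (SE 0.08, limma, BH-adjusted p = 1.4e-06) was the most negative of all 35 rows, and its place in the order of levels went from 26 to 33. PSMD9 fell by 0.52 on the log2 scale. PSMD5, the least abundant subunit gene in control, fell by 0.20 (SE 0.07, limma, BH-adjusted p = 0.0437), but the call was lost when any culture other than butyrate replicate 2 was left out (BH-adjusted p from 0.0521 to 0.142) and under 6 other settings.

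**Figure D3:**
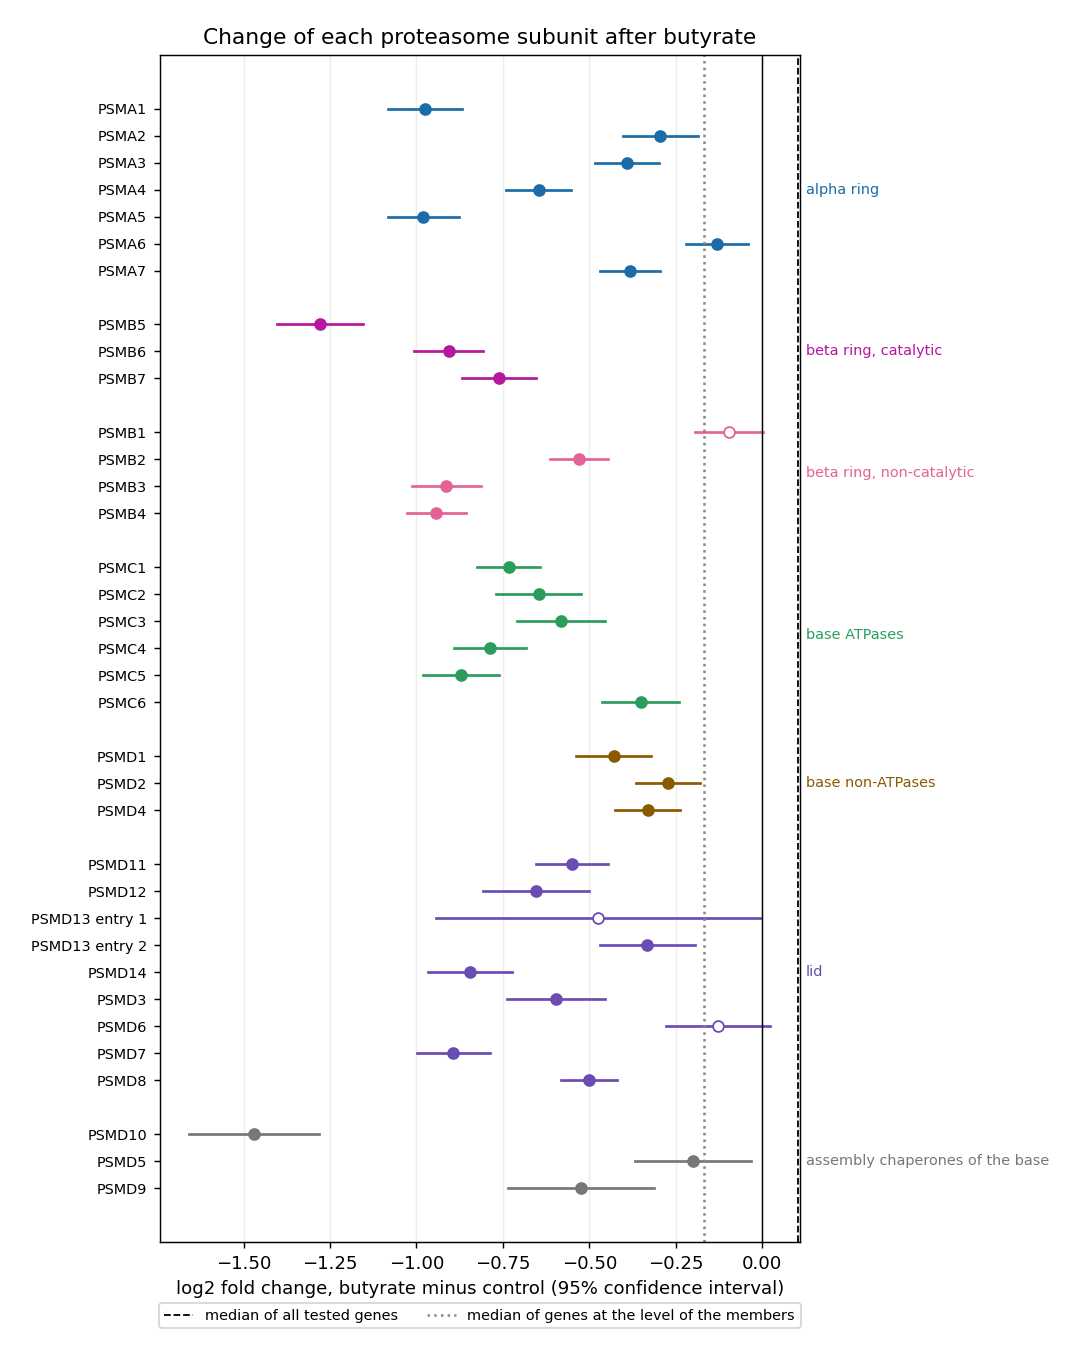
Log2 fold change, butyrate minus control, of each tested subunit row (points) with its 95% confidence interval (lines), grouped by role; filled points have a BH-adjusted p under 0.05 in limma and open points do not. The dashed line is the median of all tested genes at 0.10. The dotted line is that of the 2548 genes at the level of the subunits (mean FPKM of at least 41.9, no upper bound) at -0.17. With the FPKM as deposited all points lie left of 0. PSMB1 and PSMD6 moved right of 0 under quantile normalization, and PSMB1 under TPM.

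Of the 14 core subunits that were expressed, 13 fell (median log2 fold change -0.70), and of the 18 base and lid rows 16 fell (median -0.57). The mean level of a core subunit was 294 ± 2.18 FPKM in control and 187 ± 1.61 after butyrate. That of a base or lid row was 166 ± 3.21 and 112 ± 2.32 FPKM (mean ± SD over 3 cultures each). Unlike the count of 18 rows, this base and lid mean, the ratio and the base and lid spread below leave out the shorter PSMD13 entry. The ratio of the core mean to the base and lid mean was 1.76, 1.79 and 1.74 in the control cultures and 1.69, 1.65 and 1.66 after butyrate. The groups did not overlap, although the difference was small. The spread among core subunits, as the SD of their log2 levels, was 0.630 ± 0.0128 in control and 0.610 ± 0.0149 after butyrate, a difference close to the spread between cultures. Among base and lid rows it was 0.717 ± 0.00515 in control and 0.692 ± 0.00408 after butyrate (mean ± SD, n = 3 each), and here the groups did not overlap. In control, PSMD8, PSMB4, PSMB6 and PSMB5 followed PSMA7 at means of 426, 425, 418 and 410 FPKM, with SDs of 5.56 to 13.0, so that neighbours in this order did not separate.

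The immunoproteasome is a form of the core in which PSMB9, PSMB10 and PSMB8 take the places of PSMB6, PSMB7 and PSMB5. It is typical of immune cells and is induced by interferon in others. Of these genes, PSMB9 and PSMB10 rose and PSMB8 fell. PSMB9 was at 6.93, 6.10 and 8.19 FPKM in control and at 21.5, 19.2 and 18.8 after butyrate, a log2 fold change of 1.48 (SE 0.12, limma, BH-adjusted p = 1.2e-05). PSMB10 was at 24.0, 23.8 and 31.1 FPKM in control and at 39.3, 53.9 and 44.6 after butyrate, a log2 fold change of 0.80 (SE 0.14, limma, BH-adjusted p = 0.00105). PSMB8 fell, from 17.7, 21.1 and 21.2 FPKM to 11.8, 13.0 and 15.5, a log2 fold change of -0.58 (SE 0.12, limma, BH-adjusted p = 0.00310), which is close to the median of the constitutive subunits. In all 3 genes the groups did not overlap. Of all tested genes, 28.9% had all 3 butyrate values below all 3 control values. The share with all butyrate values above was not computed, so this separation is a description only. The Cufflinks intervals of the groups were apart only for PSMB9. The half-width of these intervals reached 42.5% of the FPKM for PSMB9, 21.4% for PSMB10 and 19.4% for PSMB8. PSMB9 shares 123 bases of its row with TAP1, whose mean was 6.86 FPKM in control and 7.47 after butyrate.

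Set against its constitutive counterpart, each immunoproteasome subunit had a larger share after butyrate, PSMB8 included. PSMB9 made up 1.66% ± 0.212 of the summed FPKM of PSMB9 and PSMB6 in control and 8.18% ± 0.834 after butyrate. PSMB10 made up 9.71% ± 1.31 of its sum with PSMB7 in control and 24.1% ± 2.37 after butyrate. PSMB8 made up 4.65% ± 0.398 of its sum with PSMB5 in control and 7.33% ± 0.538 after butyrate (mean ± SD, n = 3 each). The constitutive subunit thus kept the larger share of RNA in every culture. On the log2 scale the ratios differed by 2.40, 1.57 and 0.70 in that order, and each had an exact permutation p of 0.1, two-sided, the smallest that the design allows. Of the 4 immune markers, PTPRC was at 0 in all 6 cultures, and CD3E was at 0 in 5 cultures and at 0.178 FPKM in butyrate replicate 1. CD68 rose from a mean of 0.595 FPKM in control to 1.21 after butyrate (limma, BH-adjusted p = 0.0113), and CD14 was at 5.57 and 6.80 FPKM without passing the test. The part of these genes in the shares was not tested.

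**Figure D4:**
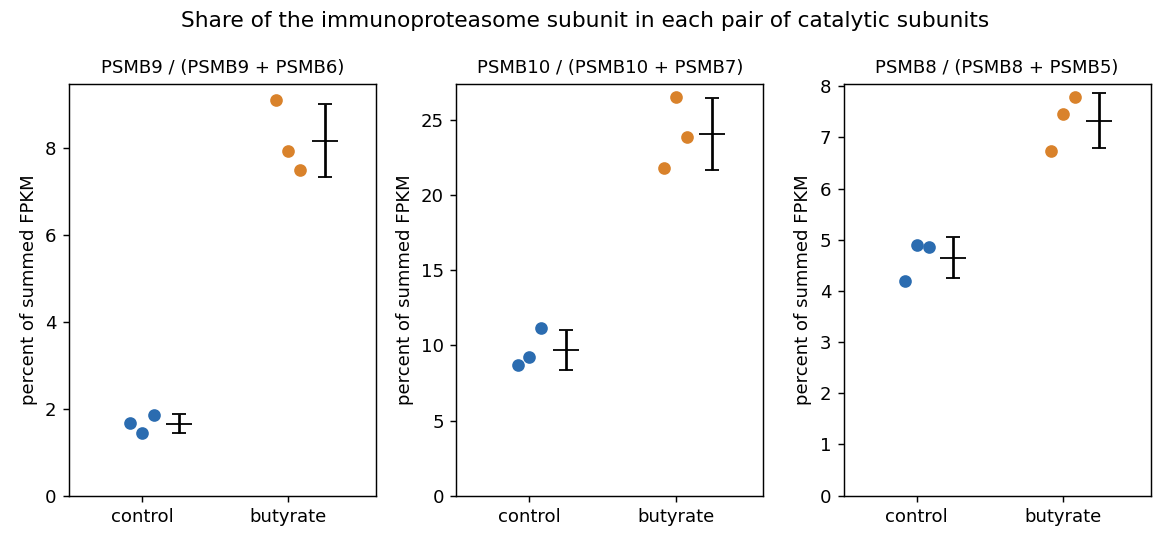
Share of the immunoproteasome subunit in the summed FPKM of each pair of catalytic subunits (percent, axes from 0) in the 3 control and 3 butyrate cultures (points), with mean and SD beside them (bars). The share of PSMB9 goes from 1.66% to 8.18%, that of PSMB10 from 9.71% to 24.1% and that of PSMB8 from 4.65% to 7.33%, and no butyrate culture lies within the control range.

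Among all 59 related genes of the pathway, 58 had a row, 57 were tested, 12 rose and 28 fell, with a median log2 fold change of -0.19. Set beside the 32.5% of all tested genes that rose and the 25.9% that fell, and the 50.7% that fell among genes at the level of the subunits, the counts of these lists are given as a description and are not read as particular to them. After rescaling to TPM the counts were 16 and 22. The activators, which cap the core in place of or beside the regulatory particle, differed among themselves. Of 6 activator and inhibitor genes 3 fell and the other 3 did not pass. PSME3, the nuclear activator, fell by 0.83 on the log2 scale, from between 26.5 and 29.8 FPKM to between 14.2 and 16.8. PSME3IP1, which binds it and is listed as FAM192A, fell by 0.55, and the proteasome inhibitor PSMF1 fell by 0.28, except that the PSMF1 call was lost on the TPM scale. The interferon-inducible activators PSME1 and PSME2 had log2 fold changes of -0.040 and -0.0048 with overlapping groups, and both turned positive under quantile normalization and TPM. PSME4 was at 1.95 to 2.37 FPKM in control and 1.59 to 1.87 after butyrate, a log2 fold change of -0.32 that did not pass (SE 0.18, limma, BH-adjusted p = 0.155). It passed as lower in limma without the trend (BH-adjusted p = 0.0496) and with quantile normalization, at -0.68 (BH-adjusted p = 0.0119).

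Of the 6 assembly chaperones outside the PSMD series, 5 fell and 1 rose. PSMG1, which pairs with PSMG2 to build the alpha ring, was at 113 to 129 FPKM in control and 56.3 to 63.7 after butyrate, a log2 fold change of -1.01 (SE 0.07, limma, BH-adjusted p = 5.4e-06). PSMG2, PSMG3 and PAAF1 fell by 0.54, 0.52 and 0.59 on the log2 scale. POMP, the maturation factor of the core, was at 181, 172 and 171 FPKM in control and 150, 166 and 150 after butyrate, a log2 fold change of -0.17 (SE 0.05, limma, BH-adjusted p = 0.0246). The POMP call was lost without control replicate 1, butyrate replicate 1 or butyrate replicate 3 (BH-adjusted p from 0.08003 to 0.0879), without the trend (BH-adjusted p = 0.112), and with quantile normalization or TPM, where the fold change was -0.039 and -0.046. PSMG4, the partner of PSMG3, rose by 0.28, but its call was lost without any of the control cultures or butyrate replicate 2 (BH-adjusted p from 0.0526 to 0.112), without the filter and without the trend.

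Of 10 other subunits and proteasome-bound enzymes, 6 fell, 1 rose and 3 did not pass. ZFAND2A, a stress-inducible proteasome-binding protein, fell by 1.10 on the log2 scale, from 16.7, 22.0 and 21.7 FPKM to 8.15, 9.81 and 9.86. SEM1, a small lid subunit listed as SHFM1, fell by 0.71, from between 249 and 263 FPKM to between 146 and 173. The proteasome-bound deubiquitinases UCHL5 and USP14 fell by 0.62 and 0.61, the ubiquitin receptor ADRM1 by 0.46 and the thioredoxin-like TXNL1 by 0.40. The ubiquitin ligase UBE3A rose by 0.31.

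Of 10 genes for the transcriptional control of the proteasome, 9 had a row and 8 were tested, and 3 rose, 3 fell and 2 did not pass, beside the 32.5% of all tested genes that rose and the 25.9% that fell. NFE2L1, the factor that activates subunit genes when the proteasome is impaired, was at 33.6, 34.7 and 26.8 FPKM in control and at 43.0, 42.7 and 46.6 after butyrate. This was a log2 fold change of 0.48 (SE 0.10, limma, BH-adjusted p = 0.00298). Its relative NFE2L2 rose by 0.65, from between 59.7 and 60.0 FPKM to between 91.1 and 97.4. NFE2L3, the third member of this family, was at 0.0979, 0.174 and 0.167 FPKM in control and at 3.28, 3.20 and 2.73 after butyrate, a log2 fold change of 3.70 (SE 0.26, limma, BH-adjusted p = 4.7e-06) that also passed the thresholds of the study. Its control level is close to the pseudocount of 0.1, so the scale understates this change. The small MAF proteins, which dimerize with these factors, all fell: MAFF by 1.43, from between 5.28 and 6.26 FPKM to between 1.93 and 2.27, MAFK by 0.42 and MAFG by 0.40. The MAFG call was lost on the TPM scale. DDI1, a protease of the type that processes NFE2L1, was listed at 0 in all 6 cultures. DDI2 was not analysed here.

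Of 12 factors that unfold substrates or shuttle them to the proteasome, 11 were tested, 5 fell and 2 rose. The unfoldase VCP had the largest change, from 279, 273 and 271 FPKM to 147, 146 and 151, a log2 fold change of -0.89 (SE 0.04, limma, BH-adjusted p = 3.3e-07). Its cofactors NPLOC4 and NSFL1C fell by 0.47 and 0.46, while its cofactor UFD1, listed as UFD1L, rose by 0.20. The UFD1 call was lost without control replicate 1 or 2 (BH-adjusted p of 0.0527 and 0.0513 in limma) and without the trend (BH-adjusted p = 0.0647). Among the shuttles, UBQLN4 fell by 0.50 and RAD23B by 0.30, the latter not on the TPM scale. UBQLN2 rose by 0.26, and this call was lost without any culture but butyrate replicate 2 (BH-adjusted p from 0.0518 to 0.0769).

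Of 13 genes for ubiquitin and its activation, 5 fell and 3 rose, beside the same shares of all tested genes. RPS27A, which encodes ubiquitin fused to a ribosomal protein, fell by 0.80 on the log2 scale, and the polyubiquitin gene UBB rose by 0.33. RPS27A went from a range of 1088 to 1132 FPKM to a range of 615 to 661. The activating enzyme UBA6 rose by 0.76, from between 7.07 and 8.49 FPKM to between 12.5 and 13.8. The conjugating enzyme UBE2K fell by 0.63, from between 64.0 and 67.2 FPKM to between 41.6 and 42.7. UBE2D3 and OTUB1 fell by 0.21 and 0.19, but neither passed under quantile normalization, under TPM or without the trend. OTUB1 turned to 0.036 under quantile normalization.

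**Figure D5:**
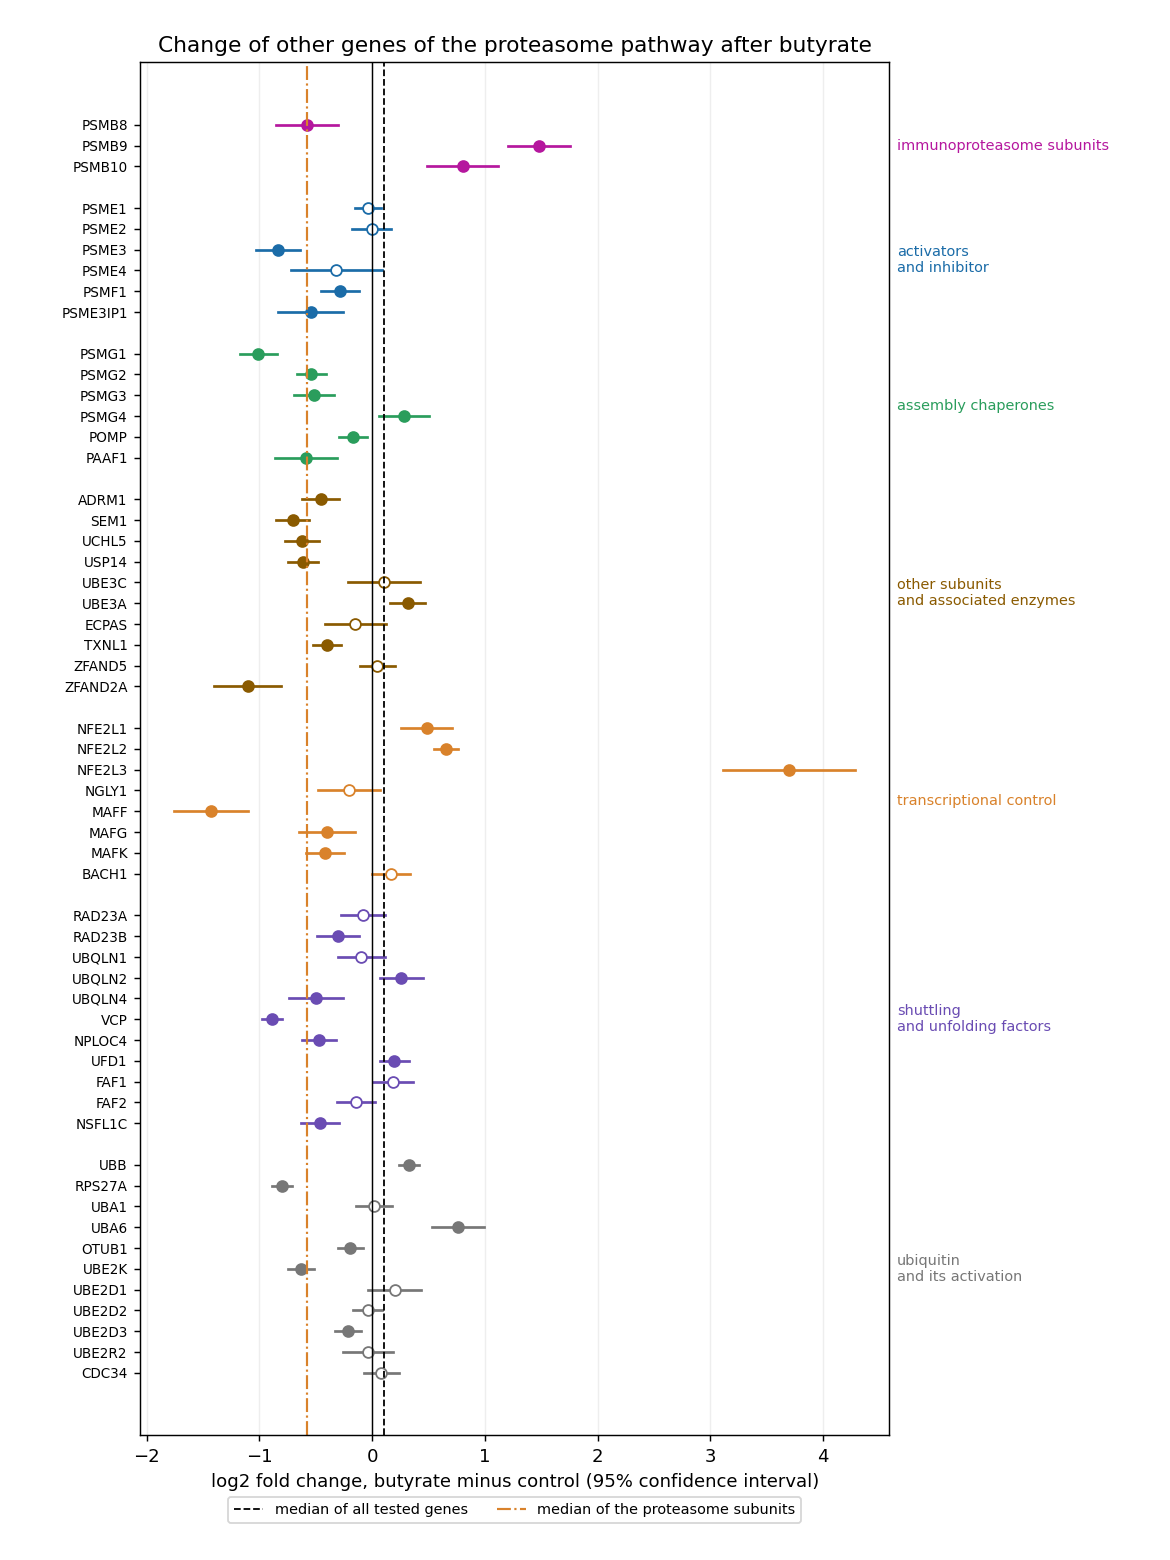
Log2 fold change, butyrate minus control, of tested related genes (points) with its 95% confidence interval (lines), grouped by list; filled points have a BH-adjusted p under 0.05 in limma and open points do not. The dashed line is the median of all tested genes at 0.10 and the dash-dotted line that of the proteasome subunits at -0.58; NFE2L3 at 3.70 lies farthest right and MAFF at -1.43 farthest left.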

How the data were processed

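RNA-seq of 3 control and 3 butyrate-treated REPC cultures was used, grouped by the sample labels. The authors trimmed paired-end reads with Trim Galore 0.4.1, aligned them with STAR to UMD3.1 per the labels, kept uniquely mapped reads and deposited FPKM per gene from Cufflinks with a 95% confidence interval. Versions of STAR and Cufflinks and the library strand are not given in the sources used here.

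Rows of the 6 tables were joined by gene name, gene ID and locus together, since 214 rows carry no gene ID. FOSL2 and TNC, with failed estimates, were left out. Sequence accessions were placed on chromosomes by majority, which held for 1139 of 1142 genes. Genes averaging 0.1 FPKM or more (15813) were fitted on log2(FPKM + 0.1) by limma (version 3.58.1, R 4.3.3) with its mean-variance trend, a step checked on simulated data. Fold changes are on this scale, which understates those of low genes. Count models were not used because the tables hold FPKM only. Exact permutation tests used scipy 1.17.1.

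Every subunit gene is named. All values are given for PSMB5, PSMB6, PSMB7, the 4 largest falls, subunits listed at 0 and, chosen after their values were seen, the rows with overlapping groups and PSMA6. Related genes are named where they passed the test or belong to the PSME or DDI families. Some related genes that passed are counted but not reported here by name. The subunit genes, the lists and the tests were chosen with earlier results of these data known. Alternatives were other pseudocounts, filters, scalings and thresholds, limma without the trend, a replicate block and each culture left out. Same-numbered cultures deviated from their group means with correlations of 0.0228, -0.0043 and 0.0018, so the numbers were not taken to pair them. Promoter and protein sequences were not used here.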

Additional observations from a re-analysis of the deposited data

How the results depend on the processing

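The counts of subunit rows that fell (32), of rows that rose (0) and of rows past the thresholds of the study (0) and the median log2 fold change of -0.58 were recomputed under each alternative. The scalings moved the median of all genes from 0.10 to 0.14 with median centring, 0.23 with TPM and -0.045 with quantile normalization. Quantile normalization gave 29 rows that fell, 1 row that rose and a subunit median of -0.46. TPM gave 30 rows that fell and a subunit median of -0.46. With median centring 30 rows fell, without the trend 30 and without the filter 31. Relative to the median of all genes, the subunit median was -0.68 as deposited, -0.68 with TPM and -0.42 with quantile normalization. The cause of these moves was not tested. The Bonferroni threshold alone left 18 rows that fell and the thresholds of the study left 0, since these rules are stricter by construction. For the related genes, the Bonferroni threshold left 3 that rose and 5 that fell, the thresholds of the study 1 and 0, and a fold beyond 0.5 left 5 and 15. Leaving out each culture in turn gave 30 to 34 subunit rows that fell, 0 to 0 that rose and 0 to 0 past the thresholds of the study, medians of -0.64 to -0.53, 9 to 12 related genes that rose and 27 to 28 that fell. The log2 ratios of the immunoproteasome pairs differed by 2.30 to 2.49 for PSMB9 to PSMB6, 1.47 to 1.68 for PSMB10 to PSMB7 and 0.62 to 0.76 for PSMB8 to PSMB5 with each culture left out.

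Single genes that changed sign were PSMB1 (0.12 with quantile normalization, 0.028 with TPM), PSMD6 (0.033 with quantile normalization), PSME1 (0.086 with quantile normalization, 0.084 with TPM), PSME2 (0.030 with median centring, 0.13 with quantile normalization, 0.12 with TPM, and -0.084 to 0.062 with each culture left out) and OTUB1 (0.036 with quantile normalization). Of these, OTUB1 alone had passed the test before. With the replicate number as a block, 32 subunit rows fell and 0 rose, PSMD5 no longer passed (BH-adjusted p = 0.0528 in limma) and the shorter PSMD13 entry did (BH-adjusted p = 0.0334 in limma). Leaving the shorter PSMD13 entry out, an alternative chosen after seeing the data, gave 32 rows that fell and a median of -0.59. The tables hold no counts, so the limit that depth sets on single values was read here only from the Cufflinks intervals.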
